A study of Rattus norvegicus with 4 samples.

Results

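Mitochondrial carriers of the SLC25 family were examined in NRK-52E cells, a rat kidney line of epithelial origin. The family comprised the protein-coding rows of the gene table whose symbol begins with Slc25a followed by a number, together with Ucp2, which belongs to the same family under an older name. A total of 45 genes met this rule among 14850 protein-coding rows and 17768 rows in all. Ucp3 was not analysed here, and 2 further rows that match by name, Slc25a6 and Slc25a52, are annotated as pseudogenes and were left out. RNA was sequenced from 2 libraries titled lv_Mettl3 and 2 titled lv_nc. Per the labels, the lv_Mettl3 line was made by infecting NRK-52E with a lentivirus that carries a murine Mettl3 cDNA, followed by puromycin selection of a stable line, the same protocol text is attached to the lv_nc libraries, and what nc stands for is not spelled out. All 4 libraries carry the treatment label untreated, and nothing in the labels says that replicates came from separate cultures or clones, so the p-values rest on library-to-library spread that could be technical.

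SLC25 proteins are built from a tandem repeat that folds into a bundle of membrane helices, and almost all sit in the inner mitochondrial membrane, where each exchanges a particular set of metabolites between cytosol and matrix. Through them ADP and phosphate reach ATP synthase, reducing equivalents enter by the malate-aspartate shuttle, and amino acids, cofactors and iron are supplied to the matrix. The proximal tubule, from which NRK-52E keeps some features, relies on mitochondrial oxidation for its transport work. Mettl3 encodes the enzyme that deposits N6-methyladenosine on mRNA.

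Mettl3 mRNA itself did not separate the groups: it had 757 and 700 normalized reads in the lv_Mettl3 libraries and 719 and 767 in the lv_nc libraries (limma log2 fold change -0.03, adjusted p = 0.931). How the counting treated reads of the mouse transgene is not known, so every fold change here rests on the titles and sets libraries labelled lv_Mettl3 against libraries labelled lv_nc. The labels call the cells proximal tubular. The epithelial keratin gene Krt8 was high in all libraries. Of the other listed epithelial and tubule markers analysed here, Cdh1, Cdh16, Krt19, Pax8, Lrp2 and Aqp1 each stayed under 10 normalized reads. Krt7, Cubn, Anpep and Slc5a2 were low but above that, reaching 23.4, 20.3, 24.8 and 39.3 in their highest library. The proximal tubule marker Ggt1 had 3294 and 3757 in lv_Mettl3 and 2412 and 2530 in lv_nc, and was called higher by DESeq2 (adjusted p = 0.0345) and not by limma (adjusted p = 0.378). Of the 5 proximal tubule markers that limma tested, 2 had a log2 fold change above 0 and 3 below, with a median of -0.14. Of the 10 fibroblast and smooth muscle markers, 6 were analysed here. DESeq2 called Col1a1, Col1a2, Col3a1 and Acta2 lower, as it did 135 of the 12601 genes with an adjusted p. limma called 0 of the 6 (adjusted p = 0.299, 0.372, 0.214 and 0.452 for these genes in that order). The lv_nc libraries differed widely from each other for Col1a1 (3914 and 8706) and Acta2 (1531 and 748). Tagln overlapped between groups, with 2160 and 2152 in lv_Mettl3 and 3778 and 1663 in lv_nc. The 6 summed to 5150 and 4552 normalized reads in lv_Mettl3 against 13425 and 17568 in lv_nc, with Pdgfra under 4 in every library. The 4 immune markers found of 6 listed summed to between 1810 and 2171 normalized reads, almost all of it Cd14, and the 2 endothelial markers found of 4 listed to between 6.36 and 23.8. The part of the fibroblast markers and of Ggt1 in the carrier values below was not tested, and in bulk RNA fewer cells of a type and less RNA per cell cannot be told apart. Recovered gene reads per library ran from 15068898 to 16622255.

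The sequences that bear on the 3 carriers at the ends of these data are shown first: Slc25a22, the only member called by limma, DESeq2 or edgeR with all 4 libraries, Slc25a3, the most abundant member, and Slc25a48, which had the most negative fold change among members with a mean of at least 50 normalized reads in a group. Each run is the RefSeq promoter window of build GRCr8, from 250 bases before to 50 bases after the annotated start, written 5′ to 3′. Capitals mark matches, on either strand, to GGGCGG as the Sp1 box, to the CCAAT box, to TATAAA as the TATA box, to CCGGAAGT as an ETS site, to CACGTG as the E-box and to GCATGCGC as the core of an NRF1 site, and neighbouring matches can run together.
Slc25a22 (chr1:205965828-205966127, - strand): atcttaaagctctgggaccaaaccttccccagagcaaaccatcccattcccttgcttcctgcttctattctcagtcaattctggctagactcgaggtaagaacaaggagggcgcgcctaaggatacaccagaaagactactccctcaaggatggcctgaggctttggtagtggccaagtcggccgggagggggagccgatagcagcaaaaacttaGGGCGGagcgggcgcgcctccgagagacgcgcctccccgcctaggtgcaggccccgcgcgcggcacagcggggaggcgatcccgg
Slc25a3 (chr7:27506578-27506877, - strand): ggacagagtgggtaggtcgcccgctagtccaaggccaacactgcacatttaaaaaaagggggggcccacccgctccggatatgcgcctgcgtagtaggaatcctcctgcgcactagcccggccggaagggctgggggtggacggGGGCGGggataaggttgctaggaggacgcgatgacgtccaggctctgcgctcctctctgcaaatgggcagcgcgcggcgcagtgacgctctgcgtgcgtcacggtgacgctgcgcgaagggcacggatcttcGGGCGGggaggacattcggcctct
Slc25a48 (chr17:8172327-8172626, - strand): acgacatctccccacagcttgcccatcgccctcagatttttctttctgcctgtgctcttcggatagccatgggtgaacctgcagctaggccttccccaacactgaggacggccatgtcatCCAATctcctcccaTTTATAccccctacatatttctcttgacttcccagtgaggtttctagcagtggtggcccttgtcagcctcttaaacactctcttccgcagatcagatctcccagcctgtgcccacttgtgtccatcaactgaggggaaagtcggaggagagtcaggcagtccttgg
Promoter windows were found by symbol for 38 of the 45 carriers. GGGCGG was present in 26 of these 38 windows (68.4%), against 41.8% of the 21851 windows of protein-coding genes, and CCAAT in 21 (55.3%), against 38.0%. TATAAA was in 2 windows (5.26%, against 13.0% of all), CCGGAAGT in 3 (7.89%, against 4.77%), CACGTG in 3 (7.89%, against 7.02%) and GCATGCGC in 1, that of Slc25a13 (2.63%, against 3.11%). The median GC content was 60.5% in the carrier windows and 55.0% in all windows. The printed windows differ in these respects, with GGGCGG matches in Slc25a22 and Slc25a3 and none in Slc25a48. That window holds a CCAAT match and, on the opposite strand, a TATAAA match (printed as TTTATA). The median level was 177 normalized reads per kb for the 26 carriers with a GGGCGG match and 30.1 for the 12 without. These are descriptions of letters in a fixed window and not of factor binding. The 21851 windows were not limited to the genes of the gene table, and no comparison with those genes alone was made. The levels with and without GGGCGG were not set beside those of all genes.

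The family as a whole differed little between groups. Its 45 members summed to 40116 and 40715 normalized reads in lv_Mettl3 and to 40852 and 39624 in lv_nc, and the lv_Mettl3 values lay between those of lv_nc. This came to 0.251% and 0.254% of all normalized reads in lv_Mettl3, against 0.259% and 0.258% in lv_nc, so the share was slightly lower in both lv_Mettl3 libraries while the normalized sum was not. Between genes, levels are compared per kilobase of the deposited gene length. On that scale 4 members were above 1000 normalized reads per kb, 24 lay between 100 and 1000, 7 between 20 and 100, and 10 were under 20. The 4 above 1000 (Slc25a3, Slc25a4, Slc25a39 and Slc25a5) made up 65.5% and 65.3% of the summed reads per kb in lv_Mettl3, and 65.6% and 62.3% in lv_nc.

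**Figure D1:**
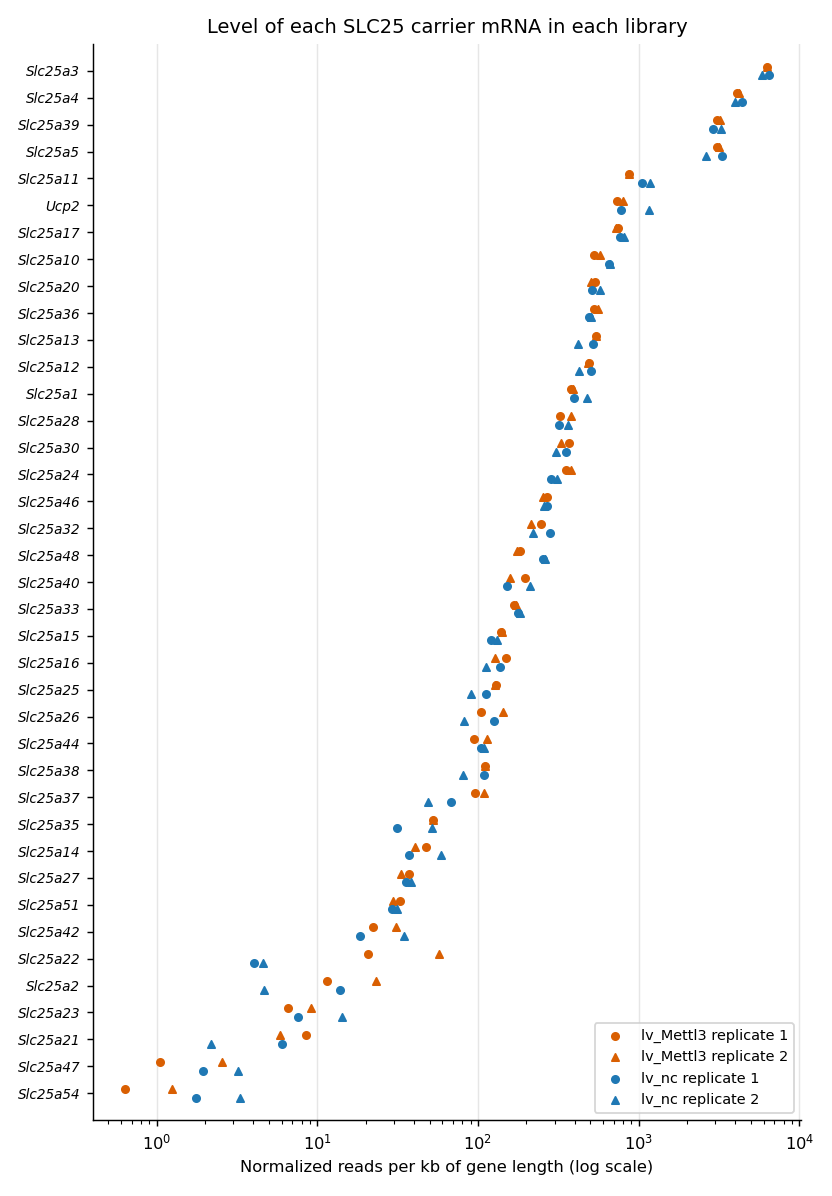
Level of each carrier mRNA in normalized reads per kb of gene length, on a log axis, with 1 point per library (orange, lv_Mettl3, drawn above blue, lv_nc; circles, replicate 1; triangles, replicate 2), for 39 members with a value above 0 in all 4 libraries. Slc25a3 was highest and Slc25a54 lowest of those plotted, and Slc25a22 is the member whose orange points stand far right of its blue ones.

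Of the 43 members with values of 1 or more in 2 or more libraries, limma called 0 at an adjusted p under 0.05 (0.0183% of all genes tested were called), and at an unadjusted p under 0.05 it had 6 (14.0%, against 10.5% of all genes). The quasi-likelihood test of edgeR also called 0 (0.0305% of all genes were called), with 5 members at an unadjusted p under 0.05 (10.1% of all genes). DESeq2 on the recovered reads called 1 member, Slc25a22, which was higher (2.52% of all genes with an adjusted p were called, and 1.45% were called higher), and had 3 members at an unadjusted p under 0.05 (7.44% of all genes). The log2 fold change was above 0 for 23 members and below 0 for 20, with a median of 0.03, against a median of 0.01 over all 16391 genes tested. Both medians turned negative when libraries were scaled by library size (-0.0062 and -0.035). With a mean of at least 50 normalized reads in a group, 35 members remained. Of these, 32 had a log2 fold change smaller than 0.5 in size (9876 of the 11234 genes of that level did), while 1 reached 2-fold (3.14% of all genes of that level did). The limma 95% interval lay within a 2-fold change in both directions for 30 of these 35, and for 9280 of the 11234 genes of that level. The groups did not overlap for 15 of the 35, or 42.9%, against 47.7% of the 11234 genes of that level. Slc25a22 passed this level through lv_Mettl3 alone, and Slc25a18 passed the minimum for testing through lv_Mettl3 alone.

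The difference between the lv_nc replicates was of the same order as the difference between groups. Over the 35 members the median size of the log2 difference was 0.18 between the lv_nc replicates, 0.09 between the lv_Mettl3 replicates and 0.11 between the groups. Over all 11234 genes of that level these medians were 0.22, 0.11 and 0.17. Replicate differences are between single libraries and group differences between means of 2, so equal spread alone would make the former larger. No member of the 35 differed by over 2-fold between the lv_nc replicates (3.51% of all genes of that level did), and 1, Slc25a22, did so between the lv_Mettl3 replicates (1.10% of all).

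**Figure D2:**
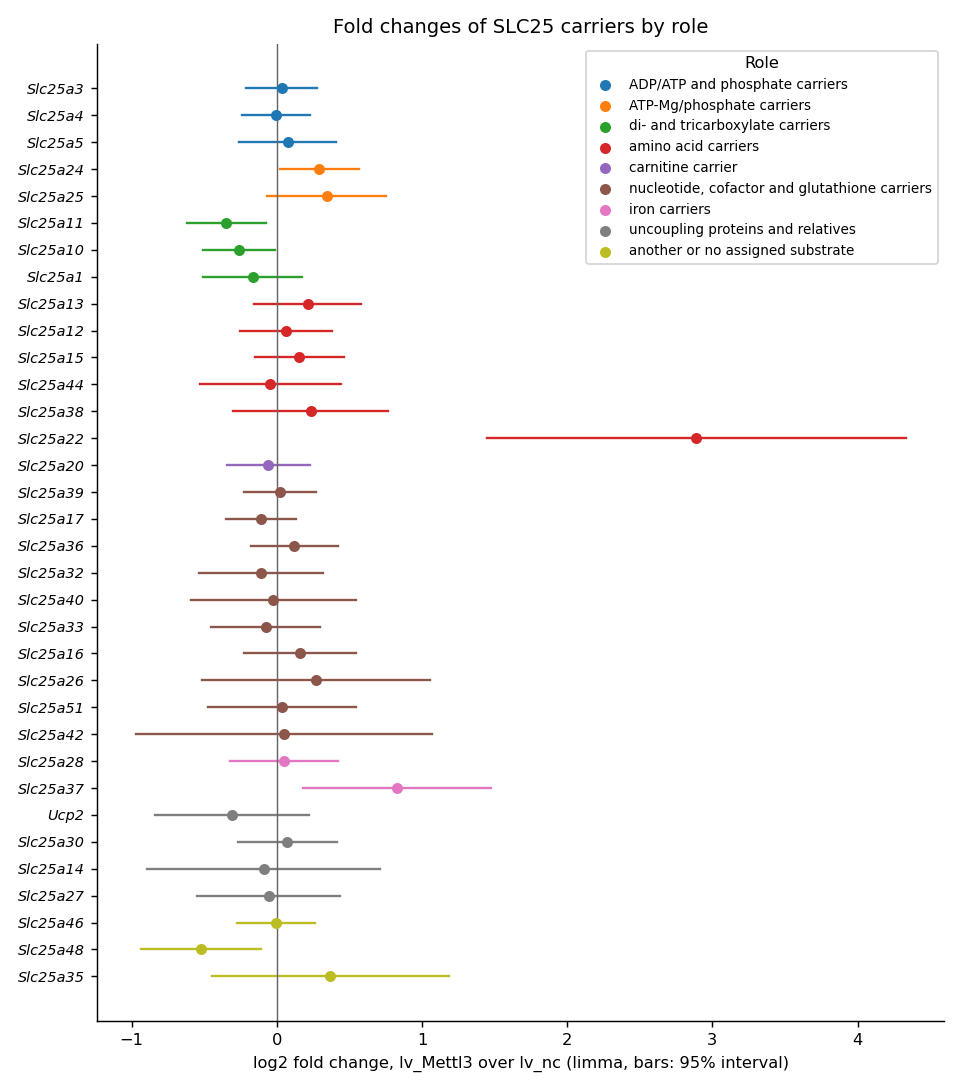
limma log2 fold change (lv_Mettl3 over lv_nc) of 34 carriers with a mean of at least 50 normalized reads in a group, with 95% intervals, ordered by role (colours) and by level within a role. Most points lie within 0.5 of 0, Slc25a22 stands apart at 2.89 with an interval of 1.45 to 4.33, and Slc25a37 follows at 0.83.

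The carriers that supply ATP synthase were the most abundant of the family and were at like levels in both groups. Slc25a3, the phosphate carrier, had 9323 and 9264 normalized reads in lv_Mettl3 and 9574 and 8608 in lv_nc. The lv_Mettl3 values lay inside the range of lv_nc, at 6283 ± 28.3 and 6147 ± 462 reads per kb (SD, n = 2 each). Its limma log2 fold change was 0.03 with a 95% interval of -0.21 to 0.28 (adjusted p = 0.911). That interval lay well within 2-fold, but it rests on library-to-library spread that could be technical. Slc25a4 and Slc25a5 encode ADP/ATP exchangers, the first known as the form of heart and muscle and the second as the form of dividing cells. Slc25a4 had 5290 and 5462 normalized reads in lv_Mettl3 and 5636 and 5146 in lv_nc (95% interval of the log2 fold change -0.24 to 0.23). Slc25a5 had 4699 and 4780 in lv_Mettl3 and 5034 and 4021 in lv_nc (interval -0.26 to 0.41). In both genes the lv_Mettl3 pair lay inside the range of the lv_nc pair. Per kb, Slc25a4 was above Slc25a5 in every library, by a ratio of 1.33 and 1.35 in lv_Mettl3 and 1.32 and 1.51 in lv_nc. ADP/ATP exchanger genes have near-identical processed copies in mammalian genomes, and how the authors counted reads that align to several places is not given in the sources used here, so this ratio is uncertain.

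The calcium-regulated ATP-Mg/phosphate carriers adjust the adenine nucleotide pool of the matrix. Slc25a24 had 1244 and 1350 normalized reads in lv_Mettl3 and 1011 and 1107 in lv_nc, with no overlap (limma log2 fold change 0.29, SE 0.11, adjusted p = 0.471). Slc25a25 had 404 and 399 in lv_Mettl3 and 353 and 283 in lv_nc, again with no overlap (0.34 by limma, SE 0.16, adjusted p = 0.505), and its log2 fold change was 0.50 without lv_nc replicate 1 and 0.19 without lv_nc replicate 2. Slc25a23 had 12.7 and 17.6 in lv_Mettl3 and 14.7 and 27.7 in lv_nc, and its groups overlapped. Neither separated member passed the test of limma, DESeq2 or edgeR. Groups did not overlap, in one direction or the other, for 47.7% of all genes with a mean of at least 50 in a group.

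The carriers of di- and tricarboxylates link the citric acid cycle to the cytosol. Slc25a11 exchanges 2-oxoglutarate for malate in the malate-aspartate shuttle, Slc25a10 exchanges malate or succinate for phosphate, and Slc25a1 exports citrate for lipid synthesis. Slc25a11 had 1051 and 1058 normalized reads in lv_Mettl3 and 1258 and 1429 in lv_nc (limma log2 fold change -0.35, SE 0.11, adjusted p = 0.452). Slc25a10 had 1017 and 1095 in lv_Mettl3 and 1256 and 1274 in lv_nc (-0.26, SE 0.10, adjusted p = 0.471). Slc25a1 had 652 and 673 in lv_Mettl3 and 678 and 815 in lv_nc (-0.17, SE 0.13, adjusted p = 0.650), and its limma log2 fold change was -0.30 without lv_nc replicate 1 and -0.03 without lv_nc replicate 2. In all 3 genes both lv_Mettl3 libraries lay below both lv_nc libraries, as in 24.2% of the genes of that level, and 0 of them passed limma, DESeq2 or edgeR with adjustment. The fourth member, the oxodicarboxylate carrier Slc25a21, went the other way at a low level, with 18.02 and 12.4 in lv_Mettl3 and 12.7 and 4.62 in lv_nc, and overlapped. Summed, this role took 7.08% and 7.16% of the family's reads per kb in lv_Mettl3, against 8.07% and 9.23% in lv_nc.

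**Figure D3:**
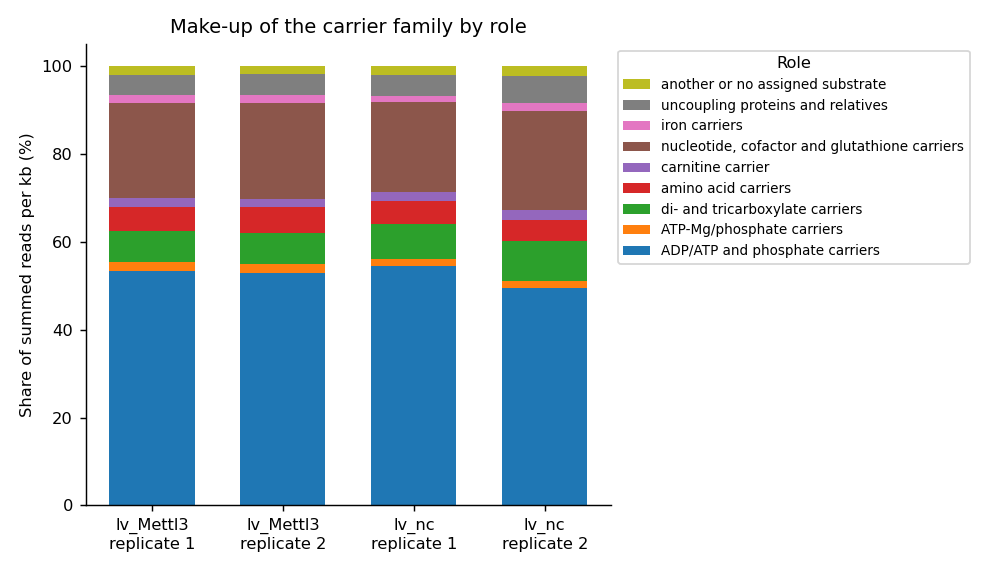
Share of each role in the family's summed normalized reads per kb, in percent, 1 bar per library. ADP/ATP and phosphate carriers hold from 49.4% (lv_nc replicate 2) to 54.4% (lv_nc replicate 1), and di- and tricarboxylate carriers hold 7.08% and 7.16% in lv_Mettl3 against 8.07% and 9.23% in lv_nc.

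Among amino acid carriers 1 gene stood out. Slc25a22 encodes a glutamate carrier that moves glutamate with a proton into the matrix. The authors' file places it on chromosome 1, 214410417 to 214414897 on the minus strand, in coordinates whose build the sources used here do not give. It had 49.8 and 140 normalized reads in lv_Mettl3 and 9.77 and 11.1 in lv_nc, from 47 and 135 recovered reads in lv_Mettl3 and 10 and 12 in lv_nc. Both lv_Mettl3 libraries lay above both lv_nc libraries, but they differed from each other by more than 2-fold (94.7 ± 63.4 in lv_Mettl3 and 10.4 ± 0.925 in lv_nc, SD, n = 2 each), a 9.08-fold ratio of means. DESeq2 called it with a log2 fold change of 3.18 (SE 0.66, adjusted p = 0.000228), while limma gave 2.89 (SE 0.56, adjusted p = 0.378) and edgeR an adjusted p of 0.304. Without lv_Mettl3 replicate 2 its DESeq2 log2 fold change was 2.25, and without lv_Mettl3 replicate 1 it was 3.74. The size thus depends on which lv_Mettl3 library is used. Those fits leave 1 library in a group, so their calls are not compared. In the authors' deposited table it was the only member with an adjusted p under 0.05, at 0.000228. The deposited log2 fold change was also 3.18, the same as the DESeq2 value here, so this is not a separate result. Per kb of gene length it had 20.5 and 57.5 normalized reads in lv_Mettl3, against 4.03 and 4.57 in lv_nc. No other row of the table overlapped it, and the only row within 5000 bases, Pidd1 on the same strand, had 24.4 and 31.0 in lv_Mettl3 and 6.84 and 48.0 in lv_nc, with overlapping groups. Slc25a18, which encodes the other glutamate carrier, was at most 3.10 normalized reads in any library.

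None of the other amino acid carriers was called by limma, DESeq2 or edgeR. Slc25a13 and Slc25a12 encode the aspartate/glutamate exchangers citrin and aralar of the malate-aspartate shuttle. Slc25a13 had 782 and 791 normalized reads in lv_Mettl3 and 759 and 606 in lv_nc, with no overlap but a wide lv_nc pair (limma log2 fold change 0.21, SE 0.14, adjusted p = 0.596). That value was 0.38 without lv_nc replicate 1 and 0.05 without lv_nc replicate 2. Slc25a12 had 979 and 964 in lv_Mettl3 and 1015 and 851 in lv_nc, and overlapped. Per kb, Slc25a12 over Slc25a13 was 0.909 and 0.886 in lv_Mettl3 and 0.972 and 1.02 in lv_nc, so the ratio was lower in both lv_Mettl3 libraries, though with 2 libraries against 2 an exact two-sided permutation test cannot give less than 0.333. Slc25a15, the ornithine carrier of the urea cycle, had 533 and 539 in lv_Mettl3 and 459 and 505 in lv_nc (0.16 by limma, SE 0.12, adjusted p = 0.642), and 0.09 without lv_nc replicate 1. The glycine carrier gene Slc25a38 and the branched-chain amino acid carrier gene Slc25a44 had log2 fold changes of 0.23 and -0.04. The ornithine carrier Slc25a2 was low, with 13.8 and 27.9 in lv_Mettl3 and 16.6 and 5.54 in lv_nc, and Slc25a29, a carrier of basic amino acids, was at most 6.46. Slc25a20, which brings acylcarnitines into the matrix for fatty acid oxidation, had 951 and 900 in lv_Mettl3 and 910 and 1021 in lv_nc, and overlapped (95% interval of the log2 fold change -0.34 to 0.23).

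**Figure D4:**
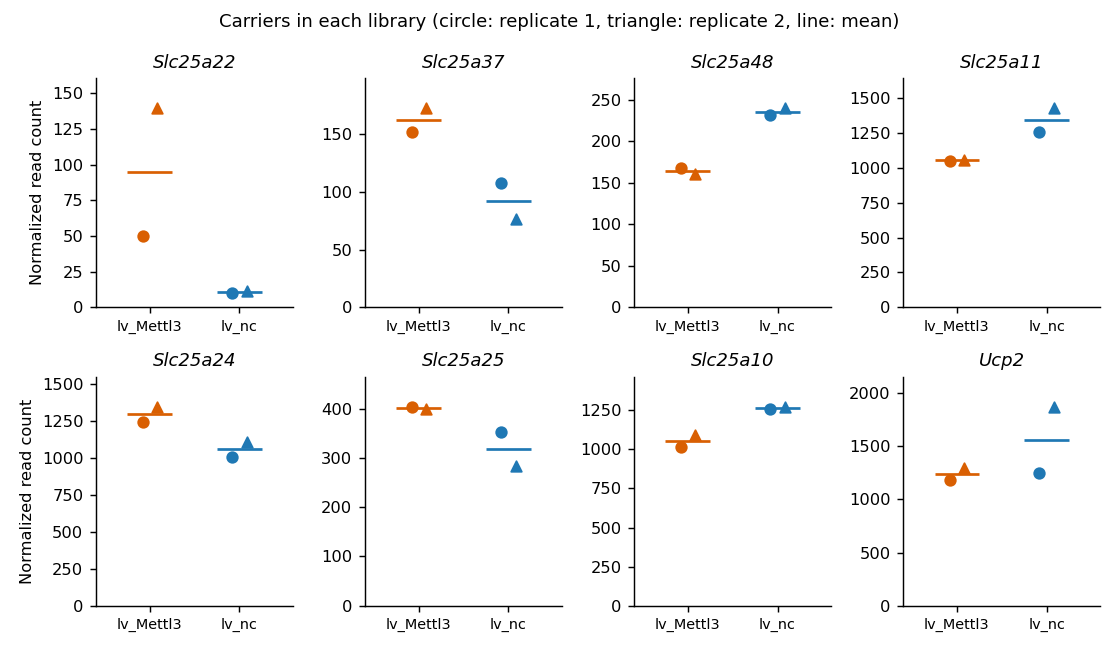
Normalized read counts of 8 carriers in each library, lv_Mettl3 (orange) left of lv_nc (blue), with circles for replicate 1, triangles for replicate 2 and lines for means, each panel with its own axis from 0. Slc25a22 shows a wide lv_Mettl3 pair above a tight lv_nc pair, and Ucp2 a wide lv_nc pair whose lower point falls between the lv_Mettl3 points.

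The 11 carriers of nucleotides, cofactors and glutathione had log2 fold changes from -0.11 to 0.27, and 0 were called by limma, DESeq2 or edgeR. Slc25a39, which imports glutathione, had 4429 and 4626 normalized reads in lv_Mettl3 and 4207 and 4715 in lv_nc, so the lv_Mettl3 pair lay inside the lv_nc pair (95% interval of the log2 fold change -0.23 to 0.27). Per kb it exceeded its paralogue Slc25a40 by 15.7 and 20.2 times in lv_Mettl3 and 19.2 and 15.5 times in lv_nc. These ratios are uncertain, since Rundc3b overlaps Slc25a40 on the opposite strand and the strand setting of the counts is not given. Slc25a17, a peroxisomal carrier of cofactors and so an exception to the mitochondrial location, had 1302 and 1261 in lv_Mettl3 and 1339 and 1428 in lv_nc, with no overlap (limma log2 fold change -0.11, SE 0.09, adjusted p = 0.670, and -0.06 without lv_nc replicate 2). Slc25a36 and Slc25a33 carry pyrimidine nucleotides. Slc25a36 had 494 and 523 in lv_Mettl3 and 461 and 475 in lv_nc, and Slc25a33 had 233 and 238 in lv_Mettl3 and 245 and 251 in lv_nc, so each separated by a small margin and in opposite directions. Slc25a26 imports S-adenosylmethionine, the methyl donor that Mettl3 also uses, and had 117 and 158 in lv_Mettl3 and 140 and 90.5 in lv_nc, which overlapped (log2 fold change 0.27, 95% interval -0.51 to 1.05). The folate carrier gene Slc25a32 and the coenzyme A carrier genes Slc25a16 and Slc25a42 also overlapped between groups. Slc25a51, the NAD+ carrier gene, had 135 and 121 in lv_Mettl3 and 120 and 129 in lv_nc. Its value is uncertain, since a second row of the table, Mcart1, carries an older symbol of the same gene and reads could be split between them (27.6 and 30.0 in lv_Mettl3, 19.5 and 32.3 in lv_nc).

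The mitoferrins Slc25a37 and Slc25a28 bring iron into the matrix for heme and iron-sulfur cluster synthesis. Slc25a37, the erythroid form, had 152 and 173 normalized reads in lv_Mettl3 and 107 and 76.6 in lv_nc, with no overlap. Its limma log2 fold change was 0.83 (SE 0.25, 95% interval 0.18 to 1.47), the second highest among the 35 members, and it passed neither limma (adjusted p = 0.452) nor DESeq2 (adjusted p = 0.330). Slc25a28, the widely expressed form, had 490 and 574 in lv_Mettl3 and 480 and 547 in lv_nc, and overlapped. Per kb, Slc25a37 over Slc25a28 was 0.297 and 0.288 in lv_Mettl3 and 0.215 and 0.134 in lv_nc, higher in both lv_Mettl3 libraries. The ratio reuses the Slc25a37 values above, and with 2 libraries against 2 an exact two-sided permutation test cannot give less than 0.333.

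Uncoupling proteins and their relatives did not separate the groups. Ucp2, which in cells other than brown fat has been tied to export of four-carbon metabolites, had 1179 and 1292 normalized reads in lv_Mettl3 and 1251 and 1873 in lv_nc. The lv_nc libraries differed from each other by more than the group means did (1235 ± 79.7 in lv_Mettl3 and 1562 ± 440 in lv_nc, SD, n = 2 each). The DESeq2 log2 fold change of Ucp2 was -0.60 without lv_nc replicate 1 and -0.02 without lv_nc replicate 2. Its value thus turns on which lv_nc library is used. Slc25a30, first described as a kidney mitochondrial carrier, had 662 and 593 in lv_Mettl3 and 640 and 555 in lv_nc. Slc25a27 and Slc25a14 had log2 fold changes of -0.06 and -0.09.

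The remaining 8 members have another substrate or none assigned. Slc25a46, a protein of the outer membrane that acts in mitochondrial dynamics, had 820 and 768 normalized reads in lv_Mettl3 and 813 and 780 in lv_nc, and overlapped. Slc25a48, which has been linked to mitochondrial choline uptake, had 168 and 160 in lv_Mettl3 and 232 and 240 in lv_nc. These groups were tight and did not overlap (163.8 ± 5.19 in lv_Mettl3 and 236 ± 5.99 in lv_nc, SD, n = 2 each), yet it passed neither limma (log2 fold change -0.52, SE 0.16, adjusted p = 0.452) nor DESeq2 (adjusted p = 0.536). Slc25a35 had 89.1 and 88.9 in lv_Mettl3 and 53.7 and 87.7 in lv_nc, and is uncertain because Rangrf overlaps it on the opposite strand by 42 bases and the strand setting of the counts is not given in the sources used here. Slc25a40 and Slc25a46 are also overlapped on the opposite strand, by Rundc3b over 10114 bases and by Sap130 over 183, and are uncertain for the same reason. Slc25a45, Slc25a47 and Slc25a54 were at most 6.46 normalized reads. Slc25a34 and Slc25a43 were each detected in a single lv_nc library with 4 reads and were not tested.

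Genes that handle the carriers or work with them were set beside the family. Of 16 genes for import and insertion of carriers (subunits of the TOM complex, the small TIM chaperones and the TIM22 complex), limma tested 15 and called 0. At an unadjusted p under 0.05, limma had 1 (10.5% of all genes) and DESeq2 had 3 (7.44% of all genes). With adjustment, DESeq2 called 1 higher (1.45% of all genes with an adjusted p). That gene was Timm8a1, a small chaperone of the intermembrane space, with 383 and 199 normalized reads in lv_Mettl3 and 146 and 84.9 in lv_nc (DESeq2 adjusted p = 0.0232 at a log2 fold change of 1.34, SE 0.38, while limma gave 1.31 with an adjusted p of 0.452). Its DESeq2 log2 fold change was 0.79 without lv_Mettl3 replicate 1 and 1.73 without lv_Mettl3 replicate 2. It was 0.99 without lv_nc replicate 2 and 1.77 without lv_nc replicate 1, so the size depends on single libraries. Calls of those fits are not compared. The list had a median log2 fold change of 0.16, with 12 of 15 above 0, against 8306 of all 16391 genes. In all 15, lv_nc replicate 2 was below lv_nc replicate 1 (median size of the log2 difference 0.39), against 5622 of the 11234 genes of the level used above. The part of that library in the list's median was not tested. Tomm70, the outer membrane receptor for carrier precursors, had 1647 and 1543 in lv_Mettl3 and 1426 and 978 in lv_nc, and Timm22, the insertion channel, 816 and 847 in lv_Mettl3 and 762 and 708 in lv_nc. Both were named after their values were seen, and neither was called.

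The other mitochondrial transport genes had a median log2 fold change of -0.01 over 17 rows, and limma and DESeq2 each called 0, with 1 and 0 at an unadjusted p under 0.05. Over all genes 10.5% (limma) and 7.44% (DESeq2) had an unadjusted p under 0.05, which also applies to the 2 lists below. They include the pyruvate carrier subunits Mpc1 and Mpc2, the VDAC channels and the calcium uniporter Mcu, and the most abundant per kb were Vdac1 (4524 and 4528 normalized reads in lv_Mettl3, 4399 and 4392 in lv_nc) and Vdac3 (3169 and 3231 normalized reads in lv_Mettl3, 3389 and 3309 in lv_nc). The list of partner enzymes of the shuttles, which also holds the plasma membrane amino acid transporter gene Slc1a5, had a median of 0.06 over 19 genes with 0 calls by limma and DESeq2, with 2 and 2 at an unadjusted p under 0.05, and Mdh2 and Got2, the matrix enzymes of the malate-aspartate shuttle, were the most abundant per kb. Got2 had 6419 and 6908 in lv_Mettl3 and 6312 and 6338 in lv_nc (log2 fold change 0.07), while Mdh2 overlapped (0.04). Mitochondrial biogenesis genes had a median of 0.09 over 9 genes, again with 0 calls by limma and DESeq2, with 0 and 1 at an unadjusted p under 0.05. Cs, citrate synthase, had 3338 and 3296 in lv_Mettl3 and 3434 and 3222 in lv_nc, and Tfam, which packages and transcribes mitochondrial DNA, 901 and 748 in lv_Mettl3 and 867 and 713 in lv_nc.

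**Figure D5:**
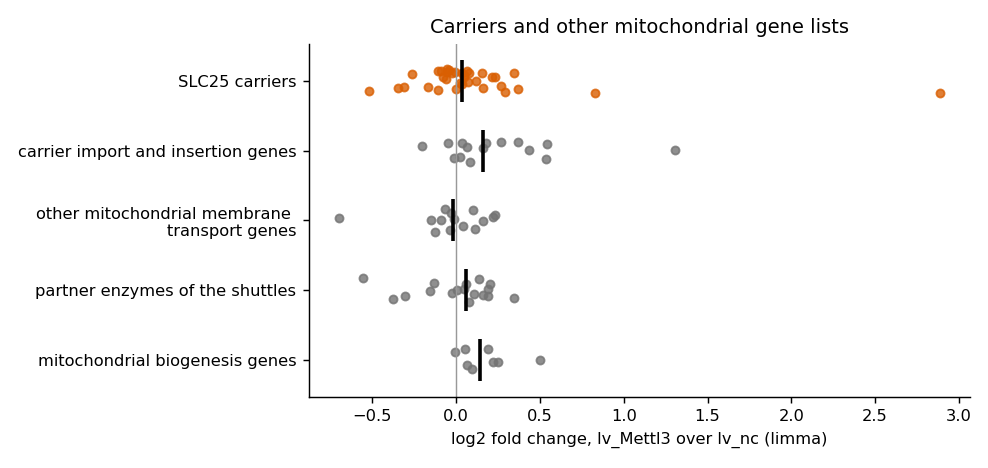
limma log2 fold changes (lv_Mettl3 over lv_nc) of the carriers (orange) and of the other mitochondrial gene lists (grey), 1 point per gene with a mean of at least 50 normalized reads in a group, with a black bar at the median of the plotted genes and points spread vertically for legibility. Most genes of all lists lie within 0.5 of 0, and Slc25a22 at 2.89 and Timm8a1 at 1.31 stand furthest to the right.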

How the data were processed

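RNA-seq of 4 rat NRK-52E libraries was analysed, 2 per group as their titles give. Per the submitters' processing notes, CASAVA 1.4 and HISAT2 were used. The sources used here name no counter, genome build, annotation or strand setting. The library columns the authors deposited hold a signal: gene reads divided by 1 size factor per library (within 0.001 reads, 100% of values were whole multiples of each library's smallest value). Those steps gave back whole reads, 15068898 to 16622255 per library. Per the file headers, the table also carries deposited log2 fold changes and p-values of the authors, with no tool named. For the carriers these log2 fold changes and unadjusted p-values nearly equal the DESeq2 values given here, so they are not a separate test. Gene length, in bases, is as deposited.

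The main test was limma-trend (limma 3.58.1) after adding 1 and taking log2, for the 16391 genes that reached 1 in 2 or more libraries, with a Benjamini-Hochberg threshold of 0.05. On this scale the change of low genes is understated. DESeq2 1.42.0 and edgeR 4.0.16 were run on the recovered reads, and DESeq2 gave no adjusted p for 8 carriers. R was 4.3.3. Scripts were tested on simulated counts. Carriers were given per-library values where called, where separated with a mean of at least 50 (the 10 smallest limma p-values), or where most abundant of their role, and others by choice after seeing values. Of the other lists, called genes or the 2 most abundant per kb were to be named. The values of 1 carrier are not reported here, though it stays in the counts and sums. The carriers, roles and lists were chosen with earlier results of these data known. Sequences are RefSeq promoter windows of GRCr8. Alternatives changed the pseudocount, filter, scaling, test and replicate block, and left out each library.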

Additional observations from a re-analysis of the deposited data

How the results depend on the processing

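The limma count of called carriers was 0 under the other pseudocounts, filters and scalings, robust empirical Bayes and the replicate block. edgeR also called 0, and DESeq2 called 1 (Slc25a22). Over all genes these limma settings called from 0 of 16391 (pseudocount 0.1) to 24 of 16391 (robust empirical Bayes), and edgeR called 5 of 16391. With so few calls among all genes, a count of 0 says little about the carriers. The DESeq2 count of 1 (318 of 12601 genes called) was also 1 with a replicate block (272 of 11912) and without independent filtering (273 of 17768). Leaving out 1 library leaves 1 in a group, so only fold changes are given for those fits. The carrier median of 0.03 was -0.0062 with library size scaling, which took the median of all genes to -0.035, and lay between 0.020 and 0.047 without single libraries. Signs turned for some carriers with changes near 0: Slc25a4 at 0.0041 with edgeR, Slc25a42 at -0.0037 with DESeq2, Slc25a46 at 0.0023 with TMM scaling and 0.0033 with edgeR, and Slc25a3 at -0.0062 and Slc25a39 at -0.017 with library size scaling. Without single libraries the ranges were -0.043 to 0.11 for Slc25a3, -0.059 to 0.11 for Slc25a39, -0.065 to 0.16 for Slc25a28, -0.052 to 0.042 for Slc25a46 and -0.14 to 0.025 for Slc25a20. That of Slc25a22 was 2.16 to 3.62. The titles share replicate numbers, and whether these pair the libraries is not stated. Deviations of same-numbered libraries correlated at 0.33 for both numbers, which with 2 pairs is a single value. The replicate block changed no call among the carriers, but the DESeq2 adjusted p of Slc25a22 was 0.00353 with it and 0.000228 without. The block moved the DESeq2 count of all genes from 318 to 272. The limma 95% interval of Slc25a42, at 51.8 to 97.9 normalized reads, ran from -0.97 to 1.07.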
